A study of Mus musculus with 4 samples.

Results

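The complement genes C1qa, C1qb, C1qc, C1s1, C1ra, C3, C4b, Serping1 and C3ar1 were followed through single-cell RNA-seq libraries of the proximal end of the mouse lower incisor at postnatal day 15. These 9 genes, chosen by symbol, were all present among the 32285 genes of each matrix. Of 4 libraries, 2 were from WT mice and 2 from Din-KO mice, which carry a conventional knockout of Din (4930453N24Rik), made from a gene-trap ES cell clone by germline Cre, with a LacZ reporter under the Din promoter. The labels and methods do not give the number of mice behind each library, and the p-values below measure only the spread between libraries. Both Din-KO libraries held cells of both sexes, hence of more than 1 animal, whereas no such mixture was seen in the WT libraries. Y-linked cells were those with a Y-linked UMI (a transcript molecule counted once by its barcode) and at most 1 Xist UMI. Among mesenchyme-like cells they made up 43.4% and 43.7% in the Din-KO libraries and 0% in both WT libraries. Sex and genotype therefore cannot be told apart where all cells of a library are summed.

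Complement is a cascade of plasma proteins that tags and lyses targets and calls in phagocytes. In its classical pathway the recognition molecule C1q, built from the products of C1qa, C1qb and C1qc, carries the serine proteases C1r and C1s. Of these, C1s cleaves C4 and C2 into the convertase that splits C3. The C1 inhibitor, encoded by Serping1, blocks C1r and C1s, and C3a released from C3 signals through the receptor C3ar1. In tissues C1q is known as a product of resident macrophages, whereas fibroblasts and other mesenchymal cells are known sources of C1r, C1s and C1 inhibitor.

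After filtering, 11310 cells remained, from 1272 to 4575 per library, with total counts of 32198098 to 54348039 UMIs per library over all barcodes and medians of 8016 to 11588 UMIs per kept cell. Cells were clustered on variable genes that left out the 9 complement genes, and classes were named from markers: 7162 cells were mesenchyme-like (dental mesenchyme, within which dental follicle-like, dental pulp-like and odontoblast-like clusters were told apart) and 1403 were macrophage-like. All 10 macrophage markers passed in each of the 3 macrophage-like clusters, led by Lyve1, by Ctss and by Ccl2. The third of these clusters (131 cells) had a median of 18400 UMIs per cell and also carried mesenchyme transcripts. Any pair of libraries shared at most 4 barcodes among kept cells. Din itself, read by 3′ tags that need not fall in the deleted part, was at 36.3 and 28.5 CPM (UMIs of a gene scaled to the total UMIs of the summed cells) in WT and 22.8 and 28.3 CPM in Din-KO mesenchyme-like cells, so it does not check the labels there. In macrophage-like cells it was at 21.4 and 16.7 CPM in WT and 7.48 and 5.46 CPM in Din-KO.

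The 9 genes separated by cell class. In all 4 libraries, 5 members (C1qa, C1qb, C1qc, C3 and C3ar1) were higher in macrophage-like than in mesenchyme-like cells, 3 members (C1s1, C1ra and Serping1) were higher in mesenchyme-like cells, and C4b lay on different sides in the 2 genotypes. Levels by class are given as descriptions, since classes were made from the same cells, and in every class fewer cells with a transcript and less transcript per cell cannot be told apart in summed counts.

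**Figure D1:**
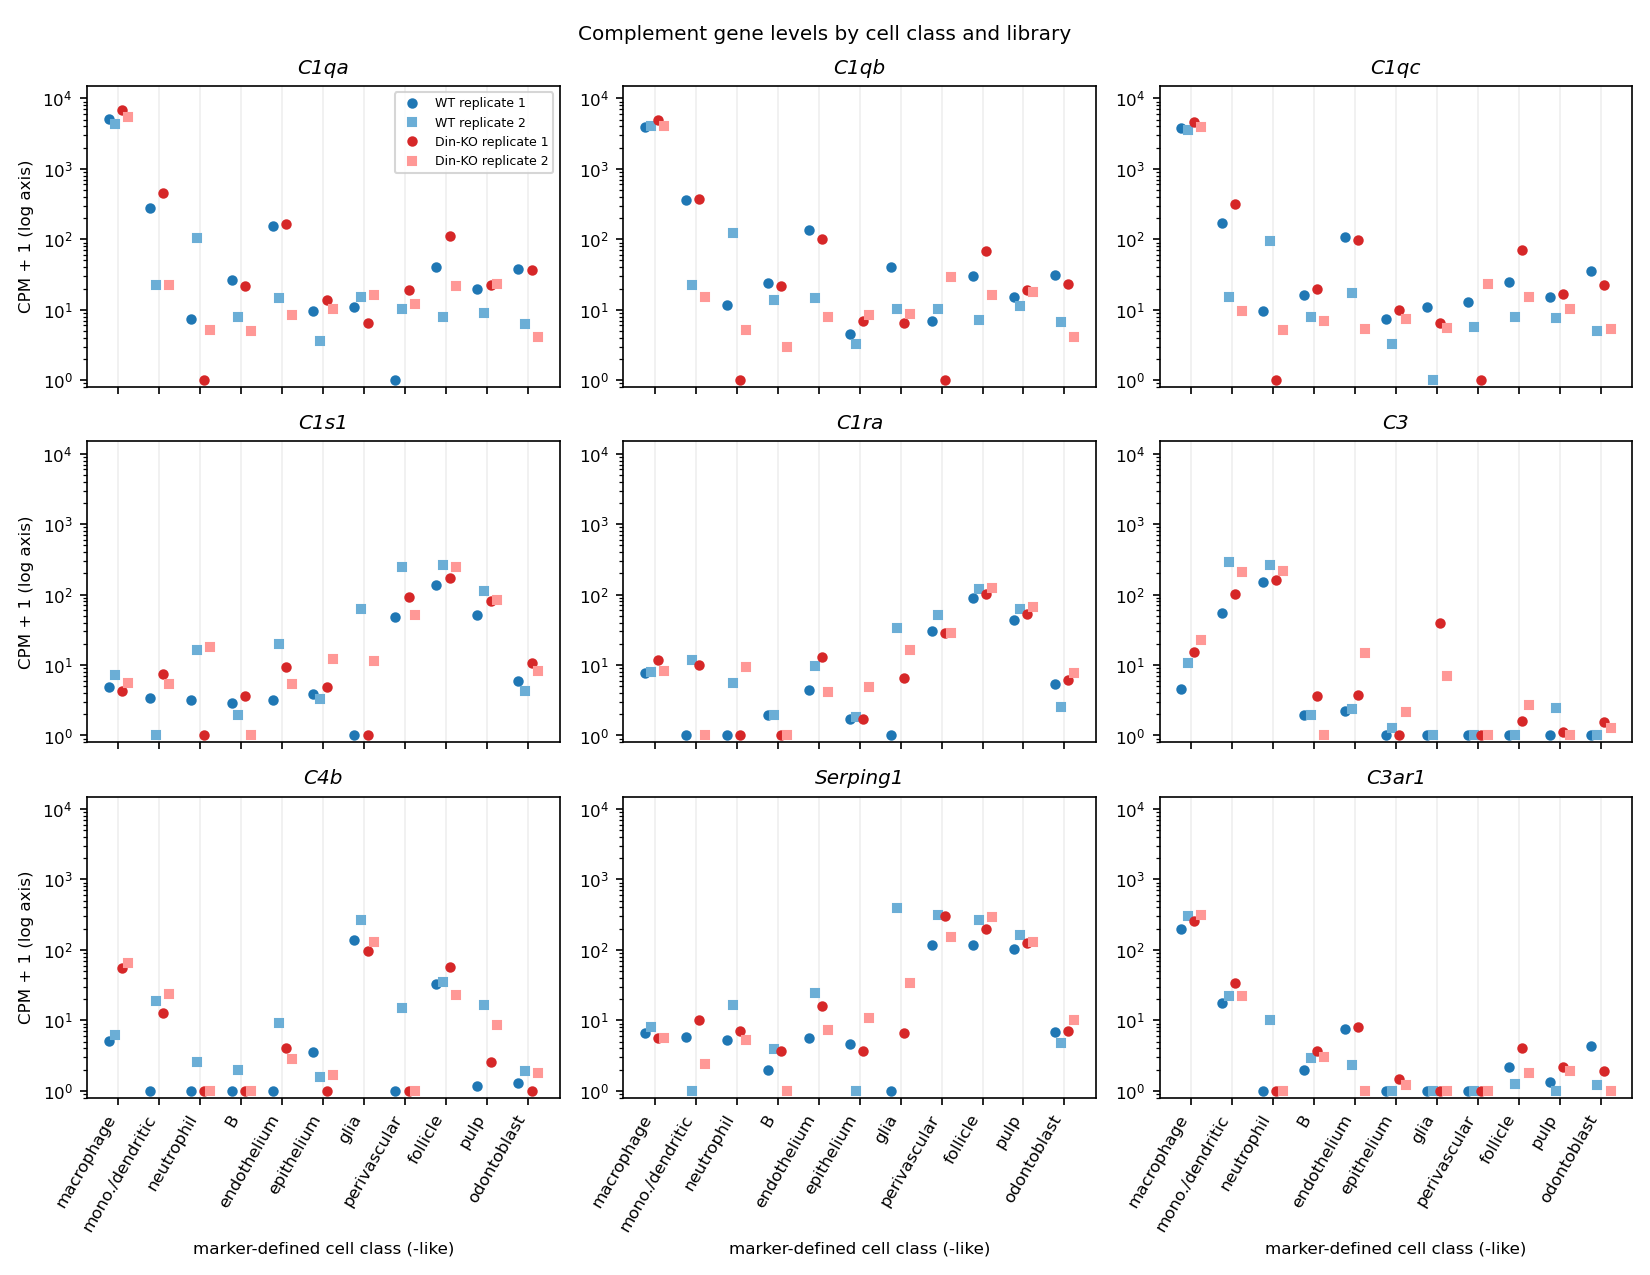
Level of each complement gene (CPM + 1, log axis) in 11 marker-defined cell classes, with 1 point per library (blue WT, red Din-KO; circles replicate 1, squares replicate 2). C1qa, C1qb, C1qc and C3ar1 peak in macrophage-like cells, C1s1, C1ra and Serping1 in follicle-like, perivascular-like and pulp-like cells, and the 2 red C4b points stand above the 2 blue ones in macrophage-like cells.

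The 3 C1q genes lie side by side on chromosome 4 of GRCm38, all on the minus strand (C1qb chr4:136880129-136886187, C1qc chr4:136889804-136893065, C1qa chr4:136895917-136898803), with 3616 bases between C1qb and C1qc and 2851 between C1qc and C1qa. Promoters of 6 of the 9 members were in the RefSeq table (GRCm38.p6, 250 bases before to 50 after the start), those of C1qa, C4b and Serping1 excepted. The promoters of C1qb (chr4:136886151-136886450, minus strand) and C1qc (chr4:136892865-136893164, minus strand) are shown because both genes had their highest level in the same cells. Capitals mark a match, on either strand, to a PU.1 motif (GAGGAAGT), a factor of the myeloid lineage, which 3.20% of the 32851 promoters in the table held. The C1qc window had a match and the C1qb window had none. The window of C3ar1 (chr6:122856108-122856407, minus strand), also highest in macrophage-like cells and not shown, had none either.
C1qb: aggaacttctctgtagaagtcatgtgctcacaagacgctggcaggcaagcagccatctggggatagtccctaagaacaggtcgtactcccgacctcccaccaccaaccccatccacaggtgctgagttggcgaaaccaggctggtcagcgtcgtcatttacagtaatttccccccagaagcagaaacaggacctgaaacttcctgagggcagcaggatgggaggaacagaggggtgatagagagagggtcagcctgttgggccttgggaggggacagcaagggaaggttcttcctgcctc
C1qc: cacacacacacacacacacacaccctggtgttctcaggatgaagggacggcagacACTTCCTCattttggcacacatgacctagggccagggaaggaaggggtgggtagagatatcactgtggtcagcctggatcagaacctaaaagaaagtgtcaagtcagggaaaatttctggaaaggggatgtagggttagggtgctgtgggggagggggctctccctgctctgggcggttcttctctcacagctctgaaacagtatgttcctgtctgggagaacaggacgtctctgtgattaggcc

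Nearly every macrophage-like cell carried C1q transcripts. C1qa reached 5042 CPM in WT replicate 1, 4360 CPM in WT replicate 2, 6932 CPM in Din-KO replicate 1 and 5505 CPM in Din-KO replicate 2. C1qb measured 3953 and 4059 CPM in WT against 4910 and 4094 CPM in Din-KO macrophage-like cells. C1qc measured 3811 and 3618 CPM in WT against 4651 and 3916 CPM in Din-KO macrophage-like cells. A C1qa UMI was found in 99.8%, 98.2%, 100% and 94.3% of these cells, in the order WT replicates 1 and 2, Din-KO replicates 1 and 2. Each Din-KO library exceeded each WT library for all 3 genes, as it did for 9.34% of the 10990 genes tested in this class, and the fold changes were small beside their errors. In edgeR's quasi-likelihood test, log2 fold changes (Din-KO over WT) were 0.47 ± 0.32 (SE) for C1qa, 0.23 ± 0.30 for C1qb and 0.27 ± 0.30 for C1qc, each with an adjusted p of 1.00 (n = 2 libraries per group). With TMM-scaled values the Din-KO libraries stood above for C1qa, as for 12.7% of all genes, and not for C1qb or C1qc. Over 38 sums of class by library, the genes whose log2 level followed each C1q gene most closely were the other 2 C1q genes and Ms4a7, a macrophage membrane gene (Pearson r 0.974 to 0.992). Ms4a7 was also among the markers that named the macrophage-like class. Sums of under 50 cells were left out, among them all those of glia-like and perivascular-like cells. The sums used share libraries and cells of like composition, and the correlations are descriptions.

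The 3 C1q genes were low in mesenchyme-like cells. There C1qa measured 22.3 and 6.28 CPM in WT against 38.3 and 14.0 CPM in Din-KO, C1qb 17.6, 6.53, 25.4 and 10.5 CPM, and C1qc 16.8, 5.61, 24.5 and 9.90 CPM. As a percentage of the level in macrophage-like cells of the same library, C1qa stood at 0.443% and 0.144% in the WT libraries and 0.552% and 0.254% in the Din-KO libraries. The median of the 10 macrophage markers on the same scale was 0.506%, 0.175%, 0.655% and 0.435%, so C1qa lay below the markers' median in each library, and none of the 10 was at 0. C1qa took 39.3%, 34.1%, 43.4% and 40.7% of all C1q UMIs in mesenchyme-like cells and 39.4%, 36.2%, 42.0% and 40.7% in macrophage-like cells. The split varied in other classes, and in monocyte or dendritic-like cells of WT replicate 1 C1qa took 34.1% and C1qb 45.2%.

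**Figure D2:**
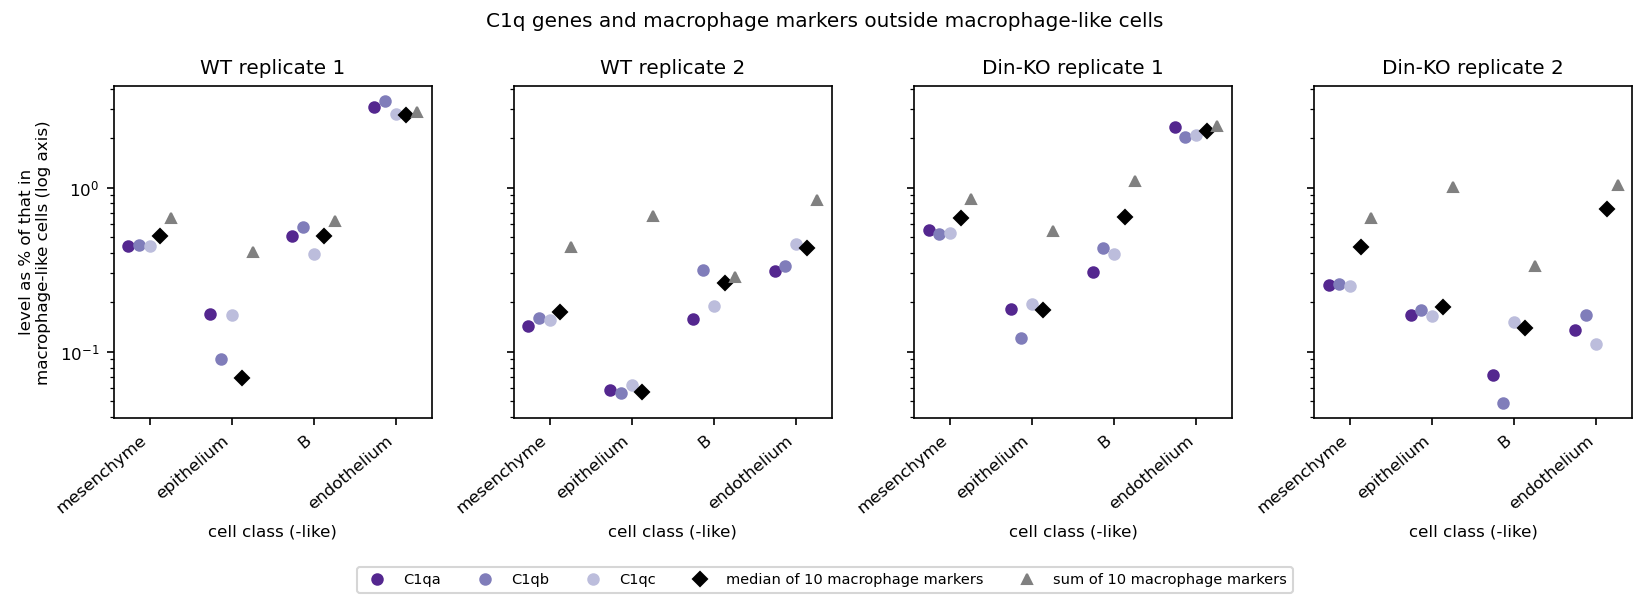
Level of C1qa, C1qb and C1qc (purple circles) outside macrophage-like cells as a percentage of their level in macrophage-like cells of the same library (log axis), beside the median (black diamonds) and the sum (grey triangles) of 10 macrophage markers on the same scale. In mesenchyme-like cells the C1q genes lie between 0.144% and 0.552%, below the markers' median in all 4 libraries.

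The C1q UMIs of mesenchyme-like cells fell into many cells with 1 UMI and few with many. In WT replicate 1, 2175 of 2654 cells had no C1q UMI, 368 had 1, 91 had 2 to 9 and 20 had 10 or more. Those 20 cells held 60.2% of the C1q UMIs of the class, and all 20 also had a macrophage marker UMI. In the other libraries 4 (WT replicate 2), 32 (Din-KO replicate 1) and 4 (Din-KO replicate 2) cells had 10 or more, holding 35.4%, 69.9% and 62.1% of the UMIs, and macrophage marker UMIs were found in 4, 30 and 4 of them. Among the cells with no C1q UMI, 21.3% to 35.8% had a macrophage marker UMI. Macrophage-like cells had medians of 110 to 175 C1q UMIs.

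The share of mesenchyme-like cells with a C1qa UMI was set beside that of epithelium-like cells, which are not known to express it. A C1qa UMI was found in 7.95% (95% exact binomial interval 6.95 to 9.05%), 6.39% (4.84 to 8.26%), 9.60% (8.57 to 10.7%) and 8.72% (6.63 to 11.2%) of mesenchyme-like cells, at median depths of 9236, 15053, 7586 and 14085 UMIs. In epithelium-like cells it was 11.7%, 6.56%, 13% and 15.6%, at median depths of 12661, 24146, 15535 and 22082 UMIs. After every cell was thinned to 2000 UMIs, the shares were 2.46%, 1.19%, 3.08% and 2.56% in mesenchyme-like cells and 2.10%, 0% (0 of 122 cells, exact upper bound 2.98%), 3.39% and 2.22% in epithelium-like cells. The intervals of the thinned shares overlap in every library. The C1qa level was nonetheless higher in mesenchyme-like than in epithelium-like cells of each library, where it was at 8.56, 2.57, 12.6 and 9.18 CPM, and the source of these UMIs was not tested. Without the 5% of cells with the highest doublet scores, the mean C1qa level in mesenchyme-like cells fell from 0.348% to 0.196% of that in macrophage-like cells.

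C1q outside macrophages differed between libraries within one class. Endothelium-like cells had C1qa at 156 and 163 CPM in WT and Din-KO replicate 1 but 13.6 and 7.47 CPM in WT and Din-KO replicate 2. Macrophage markers moved the same way there, with a summed level of 2.87% and 2.37% of that in macrophage-like cells in the replicate 1 libraries and 0.839% and 1.04% in the replicate 2 libraries, where 1 and 2 of the 10 markers were at 0. In those cells 9 and 11 with 10 or more C1q UMIs held 95.9% and 93.4% of the class's C1q UMIs in the replicate 1 libraries, against 1 and 0 such cells in the replicate 2 libraries. Without the cells with the highest doublet scores, C1qa fell from 3.09% to 0.0988% of the level in macrophage-like cells in WT replicate 1. In Din-KO replicate 1 it fell from 2.35% to 0.652%. In the replicate 2 libraries it went from 0.312% to 0.230% in WT and from 0.136% to 0.137% in Din-KO.

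Dental follicle-like cells of Din-KO replicate 1 carried the most C1q among mesenchyme subclasses when all kept cells were summed. C1qa measured 39.1 and 6.79 CPM in WT against 111 and 20.9 CPM in Din-KO follicle-like cells, so the genotypes overlapped. The 10 macrophage markers summed to 68.3 and 27.4 CPM in WT and 149 and 60.4 CPM in Din-KO cells of this class, the same order of libraries as C1qa. The log2 fold changes of C1qa, C1qb and C1qc were 1.5 ± 1.03, 1.2 ± 0.94 and 1.45 ± 0.89 (SE, edgeR adjusted p 1.00 for each), and without Din-KO replicate 1 they were -0.17, -0.29 and -0.16. With no filter on low counts all 3 passed (edgeR adjusted p 2.90e-05, 0.00448 and 1.36e-04). That setting called 172 of 20284 genes, against 0 of 12984 with the filter. Relative to macrophage-like cells of the same library, C1qa in follicle-like cells stood at 0.775% and 0.156% in WT and 1.61% and 0.380% in Din-KO. Without the cells with the highest doublet scores it stood at 0.139% and 0.148% in WT and 0.366% and 0.177% in Din-KO. Pulp-like cells then had 0.288% and 0.179% in WT and 0.295% and 0.423% in Din-KO. For C1qa, follicle-like cells thus stood above pulp-like cells only in Din-KO replicate 1. For C1qb they did so in no library, with 0.355% against 0.362% in Din-KO replicate 1. For C1qc they did so in Din-KO replicate 1 (0.388% against 0.327%) and WT replicate 2 (0.181% against 0.177%). The part of macrophage transcripts in the C1q difference was not tested.

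C3ar1, the receptor for C3a (chr6:122847138-122856161, minus strand), was the second macrophage pattern. It measured 198 and 303 CPM in WT against 258 and 307 CPM in Din-KO macrophage-like cells, with overlapping groups (log2 fold change 0.23 ± 0.30, edgeR adjusted p 1.00). In mesenchyme-like cells it was between 0.24 and 1.38 CPM, and 93.1% to 94.8% of all its UMIs in kept cells came from macrophage-like cells. A C3ar1 UMI was found in 74.3% to 86.3% of macrophage-like cells and in 0.473% to 0.956% of mesenchyme-like cells. The genes closest to it over the class sums were Clec4n, P2ry12 and Trem2, all myeloid surface genes (r 0.962 to 0.969). Trem2 was also among the markers that named the macrophage-like class.

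C3, the central component (chr17:57203970-57228136, minus strand), had its highest levels in other myeloid cells. In neutrophil-like cells it measured 152 and 262 CPM in WT against 161 and 212 CPM in Din-KO, and in monocyte or dendritic-like cells 54.3 and 289 CPM in WT against 102 and 208 CPM in Din-KO. That last class joined unlike clusters. Over all libraries C3 was at 261 CPM in its Ly6c2-led cluster and at 15.3 CPM in its H2-Eb1-led cluster. The former had 24 and 21 cells in WT and 63 and 50 in Din-KO. The latter had 27, 8, 31 and 18, and the part of this mix in the spread between libraries was not tested. Macrophage-like cells had 3.63 and 9.66 CPM in WT and 14.2 and 21.9 CPM in Din-KO, so each Din-KO library exceeded each WT library. That difference did not pass the test (log2 fold change 1.66 ± 0.51, edgeR adjusted p 1.00, and 0.0137 without adjustment). Neutrophil markers in macrophage-like cells summed to 22.9 and 82.5 CPM in WT and 583 and 22.8 CPM in Din-KO. Monocyte or dendritic markers summed to 56.1 and 104 CPM in WT and 31.1 and 135 CPM in Din-KO. The part of transcripts from these other cells in the C3 difference was not tested. In mesenchyme-like cells C3 had 0, 5, 7 and 12 UMIs in all, too few to test. Genes with the closest pattern were Fpr2, Cd300lf and Ifitm6, which are expressed in neutrophils and monocytes (r 0.941 to 0.970). With sums of under 50 cells left out, neutrophil-like cells entered these correlations from WT replicate 2 alone. Monocyte or dendritic-like cells entered from every library but WT replicate 2.

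The C3 promoter (chr17:57228087-57228386, minus strand) is shown because C3 was highest in the 2 myeloid classes. Capitals mark a match to a C/EBP motif (TTGCNNAAT, either strand), held by 2.40% of all promoters in the table. No match to the PU.1 motif was in this window.
C3: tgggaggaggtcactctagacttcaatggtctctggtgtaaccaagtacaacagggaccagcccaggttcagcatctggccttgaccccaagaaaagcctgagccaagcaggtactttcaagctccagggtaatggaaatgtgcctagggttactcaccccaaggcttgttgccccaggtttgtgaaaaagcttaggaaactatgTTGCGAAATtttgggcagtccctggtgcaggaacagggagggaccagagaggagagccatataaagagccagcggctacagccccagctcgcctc

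The proteases C1s1 and C1ra and their inhibitor Serping1 formed the mesenchymal pattern. C1s1 measured 49.5 and 150 CPM in WT against 65.6 and 141 CPM in Din-KO mesenchyme-like cells, and 3.31 to 6.15 CPM in macrophage-like cells. C1ra measured 37.9 and 67.6 CPM in WT against 40.7 and 73.4 CPM in Din-KO mesenchyme-like cells. Serping1 measured 77.4 and 156 CPM in WT against 93.7 and 171 CPM in Din-KO mesenchyme-like cells. Of all UMIs in kept cells, mesenchyme-like cells gave 94.6% to 96.7% for C1s1, 88.1% to 95.8% for C1ra and 92.4% to 96.4% for Serping1. For each of these genes both replicate 2 libraries were above both replicate 1 libraries, whatever the genotype. Follicle-like cells, in which these genes were highest among mesenchyme subclasses, made up 336 of 2654 and 363 of 3032 mesenchyme-like cells in replicate 1 of WT and Din-KO and 424 of 845 and 306 of 631 in replicate 2, and their part in this difference was not tested.

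Summed by subclass, the 3 genes were graded from follicle to odontoblast. C1s1 was at 134, 264, 169 and 248 CPM in follicle-like cells (WT replicates 1 and 2, then Din-KO replicates 1 and 2), at 49.6, 112, 79.0 and 81.6 CPM in pulp-like cells and at 5.03, 3.30, 9.53 and 7.20 CPM in odontoblast-like cells. Serping1 was at 118, 263, 198 and 296 CPM in follicle-like cells, at 104, 160, 126 and 129 CPM in pulp-like cells and at 5.86, 3.74, 5.98 and 9.25 CPM in odontoblast-like cells. C1ra was at 88.7, 118, 99.9 and 125 CPM in follicle-like cells, at 43.2, 60.9, 51.7 and 66.6 CPM in pulp-like cells and at 1.54 to 6.68 CPM in odontoblast-like cells. In each library the order was follicle over pulp over odontoblast for all 3 genes. The 3.30 to 9.53 CPM of C1s1 in odontoblast-like cells lay within its range in epithelium-like cells, 2.28 to 11.2 CPM.

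Clusters of one subclass differed, and some follicle-like clusters lay below pulp-like ones. The follicle-like cluster led by Sfrp2 had C1s1 at 280 ± 49.8 CPM, C1ra at 138 ± 9.26 CPM and Serping1 at 277 ± 75.7 CPM (mean ± SD of 4 libraries). Sfrp2 itself was on the list of pulp markers, and this cluster of 617 cells was named by its score over all follicle markers. The follicle-like cluster led by Mfap5 and Ccl11 had Serping1 at 403 ± 207 CPM, from 156 to 581, and C1s1 at 187 ± 117 CPM, from 47.7 to 289, both lowest in WT replicate 1. Among pulp-like clusters, that led by Smoc2 and Lypd1 had C1s1 from 107 to 201 CPM and that led by Cldn10 from 28.2 to 81.6 CPM, with no overlap between the libraries of the 2 clusters. Serping1 was at 116 ± 59.1 and 140 ± 31.0 CPM in the same 2 clusters, within its spread. The follicle-like cluster led by Bmp3 had Serping1 at 92.8 ± 39.3 CPM, a lower mean than in these 2 pulp-like clusters, and that led by Spp1 had C1s1 at 99.7 CPM on average, below the 143 CPM of the Smoc2-led pulp-like cluster. The largest odontoblast-like cluster (630 cells, led by Tac1) had C1s1 at 6.82 ± 3.87 CPM and Serping1 at 5.59 ± 2.42 CPM, and the lowest, led by Dmp1, had 2.81 ± 3.24 and 1.10 ± 2.19 CPM. The name of the Tac1-led cluster depended on the clustering: at resolution 0.5 a Tac1-led cluster of 831 cells got no subclass.

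**Figure D3:**
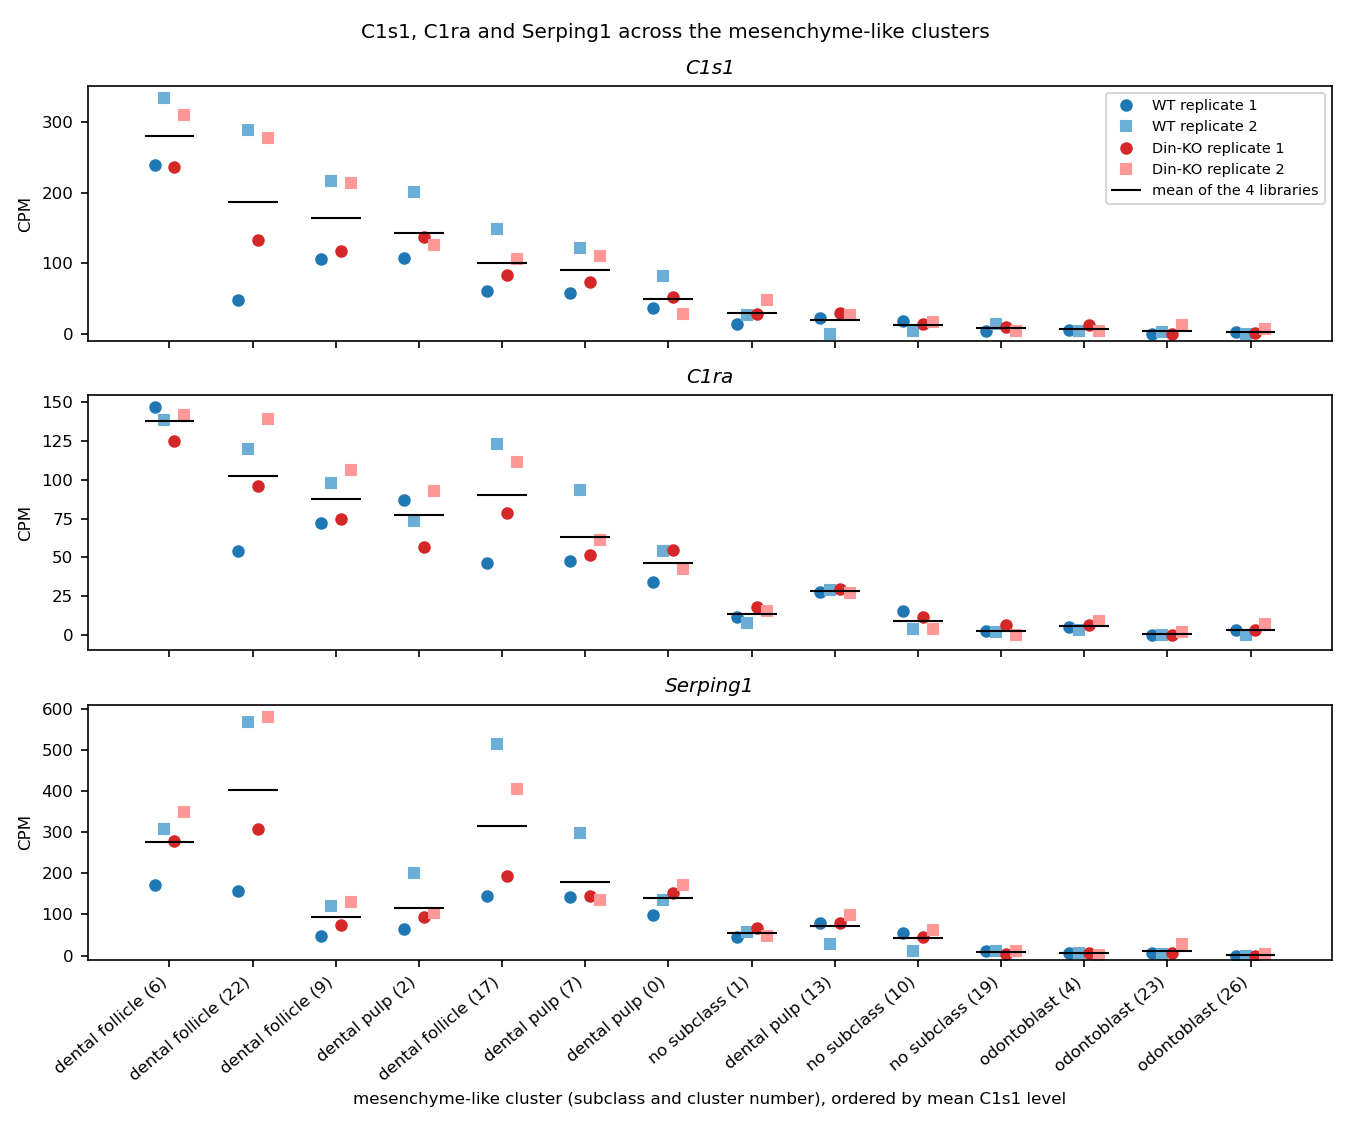
Levels of C1s1, C1ra and Serping1 (CPM) in the 14 mesenchyme-like clusters, ordered by mean C1s1 level, with 1 point per library (blue WT, red Din-KO; circles replicate 1, squares replicate 2) and a line at the mean of the 4 libraries. The follicle-like cluster 6 has C1s1 at 280 ± 49.8 CPM and the odontoblast-like clusters lie near 0 for all 3 genes.

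Other cells held these genes as well. Perivascular-like cells had C1s1 at 46.7, 249, 91.3 and 49.8 CPM and Serping1 at 117, 313, 297 and 150 CPM, from 10 to 26 cells a library. In glia-like cells Serping1 reached 396 CPM in WT replicate 2 (14 cells) and 0 to 33.3 CPM in the other 3 libraries. Over the class sums, which held neither perivascular-like nor glia-like cells, C1s1 followed Serping1 (r 0.948), Igf2 and Angptl4. C1ra followed Fmo1, Igf2 and Serping1 (r 0.921 to 0.931). Between C1s1 and C1ra r was 0.890.

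C1ra and C1s1 face each other on chromosome 6 (C1ra chr6:124512405-124523443, plus strand, and C1s1 chr6:124530345-124542359, minus strand), 6901 bases apart. Their promoters (C1s1 chr6:124542310-124542609, C1ra chr6:124512371-124512670) are shown because both genes were graded alike across mesenchyme subclasses. Capitals mark a C/EBP motif match in C1s1 and a GAS motif match (TTCNNNGAA, a site type bound by STAT factors, held by 8.30% of all promoters) in C1ra. The table holds another C1s1 window (chr6:124542272-124542571), without a C/EBP match. An ISRE motif (GAAANNGAAA, bound by interferon-regulated factors) was held by 3.44% of all promoters. It had no match in these windows or in those of C1qb, C1qc, C3 and C3ar1.
C1s1: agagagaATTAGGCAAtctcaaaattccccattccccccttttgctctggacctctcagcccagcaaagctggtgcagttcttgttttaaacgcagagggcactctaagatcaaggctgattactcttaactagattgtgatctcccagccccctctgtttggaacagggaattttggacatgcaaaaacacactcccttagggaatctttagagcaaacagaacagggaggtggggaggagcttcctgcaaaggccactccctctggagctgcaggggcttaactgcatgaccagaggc
C1ra: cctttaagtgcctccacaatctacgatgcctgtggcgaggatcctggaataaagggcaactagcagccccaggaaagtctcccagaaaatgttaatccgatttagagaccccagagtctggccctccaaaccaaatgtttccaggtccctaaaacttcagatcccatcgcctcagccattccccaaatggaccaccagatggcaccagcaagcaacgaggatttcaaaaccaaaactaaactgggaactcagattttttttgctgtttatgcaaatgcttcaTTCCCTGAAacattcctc

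C1ra and C1s1 each have a near-identical copy, C1rb and C1s2, in the same region. Of the 50-base windows in the last 500 bases of its annotated transcripts, 19.1% for C1ra and 27.2% for C1s1 also occur in the copy, so reads could be split or dropped between them. C1rb measured 0.78 and 25.9 CPM in WT against 1.24 and 22.1 CPM in Din-KO mesenchyme-like cells, and C1s2 0.32, 14.0, 0.46 and 8.13 CPM. Both copies were therefore low in the replicate 1 libraries and higher in the replicate 2 libraries of either genotype, and the levels of C1ra and C1s1 are uncertain to that extent.

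No member passed the test of Din-KO against WT in mesenchyme-like cells. The background was 0 of 15283 genes (0%) in either direction. Of 8 members tested, 0 passed in edgeR, 0 in DESeq2 and 0 had an unadjusted p under 0.05. C1s1 changed by 0.01 ± 0.65 (log2, SE), C1ra by 0.07 ± 0.42, Serping1 by 0.14 ± 0.47 and C4b by -0.18 ± 0.60, each with an edgeR adjusted p of 1.00. All 8 had overlapping libraries, also with TMM-scaled values. Of all genes, 11.3% had both Din-KO values above and 6.4% both below the WT values (9.29% and 8.55% with TMM scaling). Among pulp-like cells 0 of 7 members passed (0.0157% of 12766 genes were called higher and 0% lower), and in follicle-like cells 0 of 7 (0% of 12984 genes in either direction), with 0 unadjusted p under 0.05 and 0 DESeq2 calls in both. In pulp-like cells C1qa and C1qb had Din-KO values wholly above the WT values, as had 12.3% of all genes, and in follicle-like cells no tested member had groups apart, where 15.2% of genes were wholly higher and 8.25% wholly lower. Of the fixed list of 41 other complement genes, 0 of 22 tested in mesenchyme-like, 0 of 15 in pulp-like and 0 of 17 in follicle-like cells passed in edgeR or in DESeq2.

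In macrophage-like cells C4b was the exception. C4b, a component cleaved by C1s (chr17:34728380-34743882, minus strand), measured 4.01 and 5.27 CPM in WT against 55.2 and 64.7 CPM in Din-KO macrophage-like cells, from 21, 6, 450 and 71 UMIs. The 2 groups stood far apart. The log2 fold change was 3.79 ± 0.32 (SE, edgeR adjusted p = 0.0237, DESeq2 2.45e-08, n = 2 libraries per group), and C4b was the 1 of 9 members to pass, where 0.0728% of 10990 genes were called higher and 0% lower. Without WT replicate 1 the log2 fold change was 3.60 and without WT replicate 2 it was 3.90. C4b did not pass in either fit, but each leaves WT with 1 library and cannot decide whether C4b differs. A C4b UMI was found in 3.40% and 4.42% of WT and 23.9% and 18.2% of Din-KO macrophage-like cells, at median depths of 10189, 8938, 10228 and 10597 UMIs, and after thinning to 2000 UMIs in 0.640%, 0.885%, 8.08% and 5.81%. In epithelium-like cells the unthinned shares were 2.07%, 1.64%, 0% and 2.22% at median depths of 12661 to 24146 UMIs. The WT shares in macrophage-like cells were thus higher at lower depth. Over all libraries C4b was at 1.21 and 0.48 CPM in the epithelium-like clusters. Both large macrophage-like clusters showed the difference: C4b was at 4.72 and 6.30 against 43.2 and 71.4 CPM in the Lyve1-led cluster and at 4.70 and 5.77 against 80.8 and 53.6 CPM in the Ctss-led cluster.

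The C4b of Din-KO macrophage-like cells came mainly from cells of 1 sex in each library, and not the same sex. In Din-KO replicate 1, C4b was at 92.7 CPM in cells with Xist (at least 3 Xist UMIs and none of 4 Y-linked genes). It was at 8.36 CPM in cells with a Y-linked UMI (and at most 1 Xist UMI). In Din-KO replicate 2 it was the reverse, 6.37 CPM in cells with Xist and 116 CPM in cells with a Y-linked UMI. A C4b UMI was found in 133 of 353 Xist cells (37.7%, 95% exact binomial interval 32.6 to 43.0%) and 13 of 219 Y-linked cells (5.94%, 3.20 to 9.94%) of replicate 1. The shares in replicate 2 were 2 of 37 Xist cells (5.41%, 0.661 to 18.2%) and 12 of 33 Y-linked cells (36.4%, 20.4 to 54.9%). In WT Xist cells they were 3.96% (2.28 to 6.35%) and 5.95% (1.96 to 13.3%), so within each Din-KO library the cells of one sex stood at the WT share and those of the other far above it. With Xist cells alone the log2 fold change was 3.72 (edgeR adjusted p = 0.502), and with the Din-KO libraries divided by sex (4 sums against the Xist cells of 2 WT libraries, a division added after the data had been seen, with sums of 1 library not independent) it was 3.61 (adjusted p = 0.831). Cells of 1 sex in a library come from fewer animals than the whole library, and the labels do not tie cells to animals, so the difference between animals and that between genotypes cannot be told apart for C4b.

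**Figure D4:**
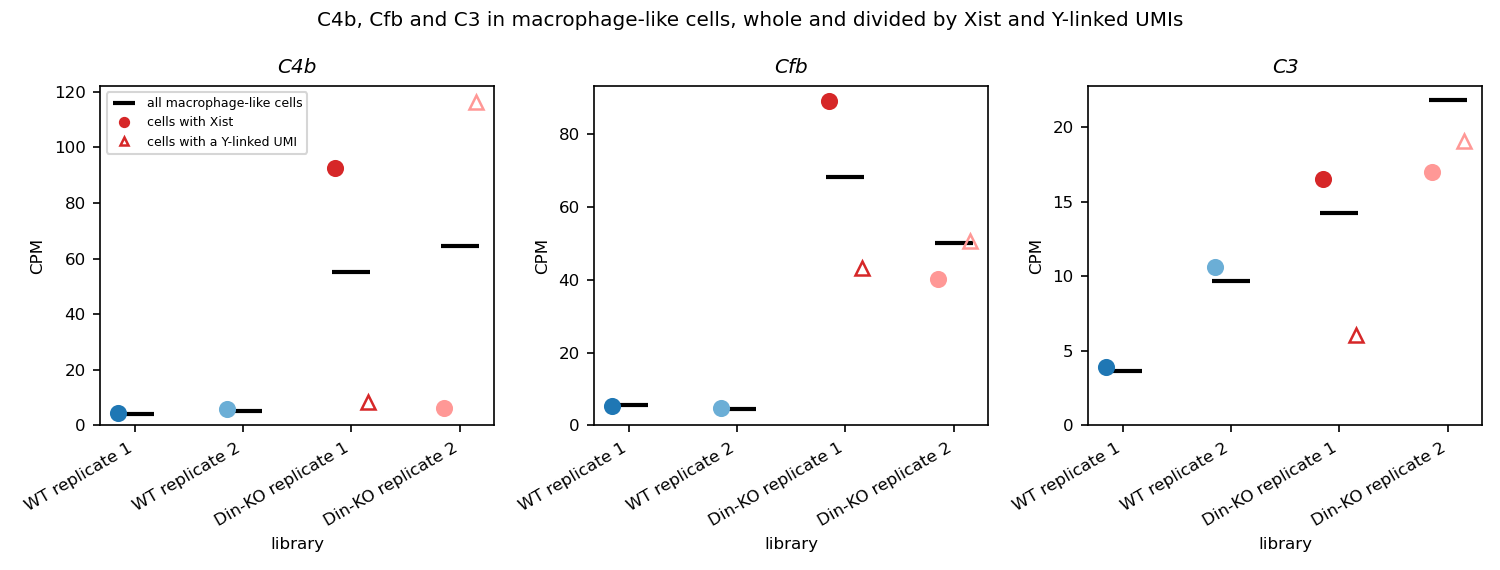
C4b, Cfb and C3 (CPM) in macrophage-like cells of each library: black bars for all cells, filled circles for cells with Xist and open triangles for cells with a Y-linked UMI (blue WT, red Din-KO). The latter have at most 1 Xist UMI, and the WT libraries have no such cells. For C4b the high value is in Xist cells of Din-KO replicate 1 (92.7 CPM) and in Y-linked cells of Din-KO replicate 2 (116 CPM), whereas for Cfb all 4 Din-KO values lie above 40 CPM.

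Cfb, the complement factor B of the alternative pathway (chr17:34856374-34862518, minus strand), passed as well and was not divided in this way. It lies 112491 bases from C4b and 85 bases from C2. In macrophage-like cells it measured 5.54 and 4.39 CPM in WT against 68.2 and 50.1 CPM in Din-KO (log2 fold change 3.58 ± 0.37, edgeR adjusted p = 0.0349, DESeq2 3.05e-07). In Din-KO replicate 1 it was at 89.0 CPM in Xist cells and 43.3 CPM in Y-linked cells, and in replicate 2 at 40.3 and 50.8 CPM, all above the 5.36 and 4.84 CPM of WT Xist cells. Xist cells alone gave a log2 fold change of 3.82 (adjusted p = 0.0513), and the division by sex 3.55 (adjusted p = 0.0723). The call was also lost without WT replicate 1 or WT replicate 2, in fits that leave WT with 1 library. With each library left out in turn the log2 fold change of Cfb ranged from 3.21 to 3.89. Cfb was the 1 of 19 tested genes of the fixed complement list to pass, and with C4b it made up 2 of the 8 genes called in macrophage-like cells, the others being Phlda3, Ifi202b, Oasl1, Ms4a4c and the Y-linked Eif2s3y and Ddx3y.

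The other members of the classical pathway did not pass in macrophage-like cells. Din-KO values lay wholly above WT values for 6 of 9 members (C1qa, C1qb, C1qc, C1ra, C3 and C4b), where 9.34% of all genes were, and wholly below for Serping1, where 16% were. With TMM-scaled values 4 of 9 were above and 1 below, where 12.7% and 12.1% of all genes were. With Xist cells alone, unscaled Din-KO values stayed wholly above for C3 and wholly below for Serping1. Serping1 was at 0 CPM in the 37 Xist cells of Din-KO replicate 2. For C4b the order held only narrowly, and so few UMIs cannot decide it. It was at 6.37 CPM (3 UMIs) in Din-KO replicate 2 against 5.81 CPM (6 UMIs) in WT replicate 2. For C1qa, C1qb, C1qc and C1ra, Din-KO and WT values of Xist cells overlapped, through the 37 cells of Din-KO replicate 2. There C1qa was at 4924 CPM against 5007 CPM in WT replicate 1, and C1qc at 3766 against 3775 CPM. C1qb and C1ra lay below both WT values there. Din-KO replicate 1 stayed above both WT values for each of these genes. The part of sex in the order of all cells was not tested. The median log2 fold change of the 9 members was 0.27, against -0.01 over all genes tested. C1s1, C1ra and Serping1 had at most 89 UMIs in any library of this class. C1ra was at 6.68 to 10.9 CPM in macrophage-like cells and at 0.713 to 3.81 CPM in epithelium-like cells.

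**Figure D5:**
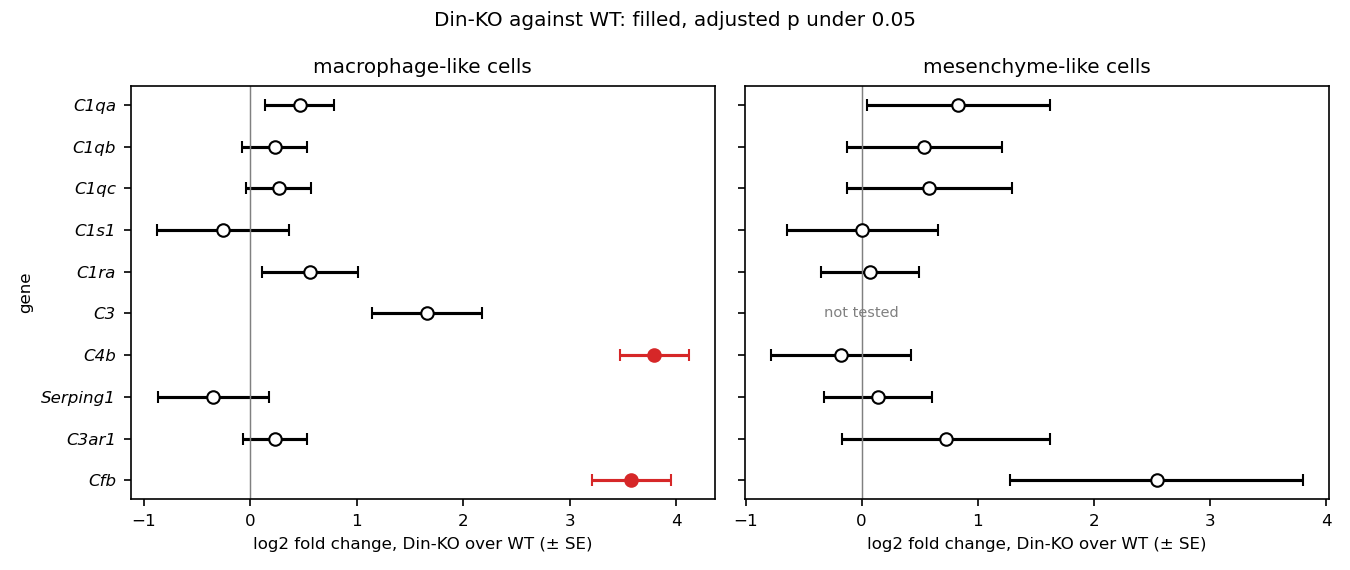
Log2 fold change of Din-KO over WT with its SE (edgeR, 2 libraries per group) for the 9 complement genes and Cfb in macrophage-like (left) and mesenchyme-like cells (right). C4b (3.79 ± 0.32) and Cfb (3.58 ± 0.37) in macrophage-like cells are the filled points, with an adjusted p under the threshold, and C3 had too few UMIs to test in mesenchyme-like cells.

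The difference between the classes was tested for each member in one model with a term for library. For C4b the effect of Din-KO in macrophage-like cells exceeded that in mesenchyme-like cells by 3.54 ± 0.41 (log2, SE), with an edgeR adjusted p of 0.0608 (4.75e-06 without adjustment), so it did not pass, and 0 of 14803 genes (0%) passed. The other 8 members had differences of -0.45 to 0.59 with an adjusted p of 1.00. With each library left out in turn C4b passed, with differences of 2.98 to 4.47, but each such fit leaves 1 genotype with 1 library, assumed to vary like the others, and 1 residual degree of freedom. Without the library term the difference was 3.99 (adjusted p = 1.00).

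Outside macrophages C4b was high in particular cells of both genotypes. Glia-like cells had 137 and 266 CPM in WT and 94.4 and 130 CPM in Din-KO, from 14 to 45 cells a library. In follicle-like cells it measured 31.7 and 34.4 CPM in WT against 55.4 and 22.0 CPM in Din-KO, with overlapping groups (log2 fold change 0.18 ± 0.44, edgeR adjusted p 1.00). Within the follicle, the cluster led by Spp1 and Mmp13 had the highest level, at 83.5 and 229 CPM in WT against 200 and 92.2 CPM in Din-KO, whereas the cluster led by Bmp3 and Dkk2 had at most 5.44 CPM. Divided in the same way, follicle-like cells had C4b at 52.3 CPM in Xist and 58.6 CPM in Y-linked cells of Din-KO replicate 1 and at 31.9 and 17.7 CPM in those of replicate 2. Glia-like cells had 72.5 CPM in 9 Xist cells and 167 CPM in 6 Y-linked cells of Din-KO replicate 1, and 49.8 CPM in 18 and 229 CPM in 19 of replicate 2. The copy C4a, with which 23.9% of the C4b windows are shared, was at or under 0.88 CPM in both classes. Over the class sums, which left out glia-like cells because each held under 50, no gene followed C4b closely. The nearest were Itgb5, Mmp13 and Gpx3 (r 0.713 to 0.753). Mmp13 was also among the follicle markers.

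Other complement genes, taken from the fixed list by role, placed the members in their pathway. Among recognition molecules, the ficolin Fcna was at 180 to 360 CPM in macrophage-like and at 0.603 to 1.52 CPM in mesenchyme-like cells, and the scavenger collectin Colec12 was at 93.2 to 325 and 290 to 338 CPM in the same classes. Of the components, C2, which joins C4b in the convertase, measured 26.3 and 44.8 CPM in WT against 66.3 and 48.3 CPM in Din-KO macrophage-like cells (log2 fold change 0.83 ± 0.35, edgeR adjusted p 1.00). C6, a part of the membrane attack complex, had 2 and 0 UMIs in WT and 37 and 7 UMIs in Din-KO macrophage-like cells, hence 0.382, 0, 4.54 and 6.38 CPM, and did not pass (log2 fold change 4.01 ± 0.99, edgeR adjusted p 0.653). Properdin, Cfp, which stabilises the alternative convertase, was at 209 to 311 CPM in macrophage-like cells. Among regulators, Cd59a, which blocks the membrane attack complex, was at 140 to 210 CPM in mesenchyme-like and 12.3 to 23.7 CPM in macrophage-like cells. The receptors C5ar1 and Itgam were at 109 to 183 and 78.1 to 104 CPM in macrophage-like cells and at or under 1.61 CPM in mesenchyme-like cells. The 19 genes of the list tested in macrophage-like cells had a median log2 fold change of 0.43, against -0.01 over all genes tested. In follicle-like cells the 17 tested had one of 0.45, against -0.02. The median was 0.11, against -0.02, for the 22 tested in mesenchyme-like cells. For the 15 tested in pulp-like cells it was -0.12, against -0.01.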

How the data were processed

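Droplet-based 3′ single-cell RNA sequencing measured 4 libraries, 2 WT and 2 Din-KO, grouped by their titles. The deposited matrices hold whole-number UMI counts per gene and barcode, made by the authors with Cell Ranger (the submitters' notes also name bcl2fastq and Seurat) on mm10 (GRCm38). Following the study's filters, barcodes under 1000 detected genes, over 10% mitochondrial or over 3% hemoglobin UMIs were dropped, and the rest integrated and clustered with Seurat 5.3.0 (30 components, resolution 1, members left out of the 2000 variable genes). Scrublet marked 0.221% of cells, which is too few for a working caller, so leaving out the 5% with the highest scores was an alternative. A class needed 3 markers among a cluster's 50 leading genes, and mesenchyme a marker score of at least 0.3. Failing both, a class needed 3 markers more than 2-fold above the other cells and at 20 CPM or more. A mesenchyme subclass was the one with the highest marker score, if 3 of its markers passed these limits. Counts were summed per class and library and tested with edgeR 4.0.16 (quasi-likelihood, TMM, filterByExpr, Benjamini-Hochberg threshold 0.05), with DESeq2 1.42.0 as an alternative, after testing on simulated data. Intervals are exact binomial and cover counting error only. Positions are from GENCODE and sequences from RefSeq. Members, lists and tests were chosen with earlier results of these data known. Genes named beside the members were those of the fixed list that passed, the 2 highest per role (a regulator among them is not reported here) and the 3 most alike per member, and others (Sfrp2, Bmp3 and other leading genes) only name clusters. The overlap counts, the copies C1rb, C1s2 and C4a and the division by sex were looked at after values were seen.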

Additional observations from a re-analysis of the deposited data

Results flagged for a closer look

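Barcodes under 1000 detected genes, which no comparison above uses, carried C1q transcripts above the level in mesenchyme-like cells. C1qa measured 559 and 322 CPM in the WT libraries (replicates 1 and 2) against 605 and 283 CPM in the Din-KO libraries, over 1410 to 2365 such barcodes per library. In the same order of libraries C1qb measured 499.8, 361, 477 and 241 CPM, and C1qc 426, 278, 391 and 204 CPM. These values were marked because they are a signal in data outside the main measurement. C4b was at 1.37 to 3.98 CPM in the same barcodes.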

How the results depend on the processing

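Of 279 values recomputed for 35 results, 233 counted as unchanged. A fold change had to keep its direction and its side of the threshold. A level or a C1q percentage had to stay within 1 SD of its main value. Counts of members had to be equal or within 1.5-fold. The number of members called in macrophage-like cells was 1, and it became 0 with Xist cells only and with the Din-KO libraries divided by Xist and Y UMIs, and ranged from 0 to 1 with 1 library left out. In follicle-like cells it was 0, and became 3 with no filter on low counts and 3 with the replicate number as a block (C1qa, C1qb and C1qc, log2 fold changes with the block 1.5, 1.19 and 1.29). Over all genes these settings called 172 of 20284 and 78 of 12984 there, against 0 of 12984 in the main fit. The labels do not say that a replicate number marks a shared batch, and with 2 pairs the deviations of same-numbered libraries correlated by 0.48 to 0.79. The block raised the genes called in macrophage-like cells from 8 to 123 and changed no other call on a member, with C4b at an adjusted p of 2.58e-04 (edgeR). The test of the difference between classes called 0 members and 1 to 1 with a library left out, where 1 genotype has 1 library, assumed to vary like the others. Directions turned for values near 0: in mesenchyme-like cells C1s1 was -0.0010 with DESeq2, -0.14 with Xist cells only and -0.0089 without cells that had a macrophage marker UMI, C1ra -0.11 with Xist cells only, Serping1 -0.0543 without cells that had a macrophage marker UMI and C4b 0.0605 with the block. With 1 library left out, C1s1 ranged from -0.62 to 1.01, C1ra from -0.40 to 0.54, Serping1 from -0.34 to 0.72 and C4b from -0.78 to 0.92 in mesenchyme-like cells. C4b ranged from -0.64 to 0.72, C1qa from -0.17 to 3.25, C1qb from -0.29 to 2.73 and C1qc from -0.16 to 2.58 in follicle-like cells, and C1qb from -0.0016 to 0.44 in macrophage-like cells. DESeq2 called 15, 46, 16 and 41 genes in mesenchyme-, macrophage-, pulp- and follicle-like cells, against 0, 8, 2 and 0. The causes were not tested. Depth limits C3 and C1q in mesenchyme-like cells and C1s1, C1ra and Serping1 in macrophage-like cells, and 88 macrophage-like cells of Din-KO replicate 2 limit every comparison of that class.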
